A study of Mus musculus with 6 samples.

Results

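Transcripts of 40 genes that act in the G2 phase of the cell cycle and in mitosis were followed in virus-specific CD4+ T cells that carried high or low amounts of CD25. The genes were listed by name and function, with no measured value in the rule, but with earlier results of these data known. All 40 had a row among the 15445 genes of the count table. The cells were monoclonal transgenic CD4+ T cells from spleens of C57BL/6 mice infected 5 days before with LCMV, the lymphocytic choriomeningitis virus. They were sorted by antibodies to CD4, to Thy1.1, an allelic form of the surface protein Thy1, and to CD25, a chain of the receptor for interleukin-2. This gave 3 CD25-high and 3 CD25-low libraries, numbered 1 to 3 in each group. Both groups share the infection, the day, the strain and the transgene, and an uninfected group was not analysed here. The labels name neither the receptor line nor whether libraries come from separate mice, so the p-values rest on a spread among libraries that may be technical.

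A cell that leaves G2 enters mitosis when the kinase Cdk1, bound to cyclin B, becomes active. Condensins and topoisomerase II then compact the chromosomes, kinesins and microtubule-binding proteins build the spindle, and kinetochores attach the chromosomes to it. The spindle checkpoint holds back the anaphase-promoting complex until the attachments are made, after which cyclin B and securin are destroyed and the cell divides by cytokinesis. Most of these genes are transcribed late in the cycle by the MuvB complex with B-Myb and FoxM1. In antiviral CD4+ T cells the amount of their transcripts in bulk RNA is known mainly as a sign of how many cells are dividing. More dividing cells and more transcript per dividing cell cannot be told apart in bulk libraries.

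Total counts ran from 16787233 to 18847288 in the CD25-high and from 18810599 to 23567066 in the CD25-low libraries. Il2ra, which encodes CD25, had 432 to 1536 CPM (counts scaled to the library's adjusted size) in CD25-high libraries, against 20.7 to 35.7 CPM in CD25-low libraries. All 12 T cell markers were measured, with a summed 4425 to 4665 CPM in CD25-high against 4718 to 6060 CPM in CD25-low libraries. Of 9 B cell and plasma cell markers 5 had a row. Their sum was 282.9 to 455.4 CPM in CD25-high against 772.6 to 901.9 CPM in CD25-low libraries, nearly all of it Ighm. Cd22 had 1.80 to 10.1 CPM in CD25-high against 7.71 to 15.3 CPM in CD25-low libraries. Cd79b, Jchain and Sdc1 did not pass 3.40 CPM. Of 9 myeloid markers 5 had a row, at 26.8 to 87.7 CPM in CD25-high against 12.9 to 42.4 CPM in CD25-low libraries, mostly Itgam, with Lyz2 and S100a9 below 1 CPM. Listed genes of CD8 T, natural killer, dendritic and erythroid cells summed to at most 5.33, 4.59, 18.2 and 3.34 CPM in any library. The part of these markers in the values that follow was not tested.

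Mitotic transcripts were abundant in both groups, and 0 of the 40 passed the adjusted test between them. In CD25-high libraries 1 to 3 the 40 genes together had 13401, 15987 and 13079 CPM, against 12593, 15635 and 11738 CPM in CD25-low libraries 1 to 3. The ranges of the groups overlap, and library 2 is the highest in each group. Per kilobase of annotated exon the median member had 28.6 CPM, against 4.13 CPM for the 12987 genes tested, and by this level the median member stood at percentile 91.6 of the tested genes. Mki67, which encodes the proliferation antigen Ki-67, was the most abundant at 373 CPM per kilobase, followed by the condensin subunit Smc4 (242), Top2a (177) and cyclin A2 (Ccna2, 116). The lowest was separase (Espl1), at 5.57 CPM per kilobase. Every member passed the filter on low counts, and the smallest count of any member in any library was 516.

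In edgeR's quasi-likelihood test with Benjamini-Hochberg adjustment over all tested genes, 0 of the 40 members passed an adjusted p of 0.05, where 0.655% of all tested genes passed (0.154% higher and 0.501% lower in CD25-high cells). The smallest adjusted p of a member was 0.353, for cyclin B1 (Ccnb1). With the replicate number as a block, which pairs same-numbered libraries, 0 of 40 members passed as well, where 4.63% of all tested genes passed, and the smallest adjusted p was 0.0807, for Plk1. DESeq2 and limma voom also called 0 members. At an unadjusted edgeR p under 0.05 without the block there were 4 members, Ccnb1, Foxm1, Aurka and Plk1, all with positive log2 fold changes. Of all tested genes, 4.69% had such a p with a positive log2 fold change, and 11.1% in either direction. With the block there were 7 members, these 4 with Ccna2, Ube2c and Espl1, all with positive log2 fold changes. The share of all tested genes at that limit was not computed with the block.

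The log2 fold changes (CD25-high over CD25-low) of the 40 members ran from -0.21 to 0.62 with a median of 0.14, beside a median of 0.01 for all tested genes. They were above 0 for 33 members and below 0 for 7, while 50.8% of all tested genes were above 0. The shift rests in good part on CD25-high library 2: without it the median was 0.03 and 24 of 40 members were above 0. Leaving out each other library in turn gave medians of 0.10 to 0.21. The 95% intervals of the log2 fold changes, not adjusted for the number of genes, lay inside a 2-fold difference in both directions for 36 of 40 members, against 37.5% of all tested genes. They lay inside 1.5-fold for 17 of 40 members, against 6.6% of all tested genes. These intervals are from the fit without the replicate block. With the block, 37 members lay inside 2-fold and 29 inside 1.5-fold, and the shares of all tested genes were not computed. Without the block the median SE was 0.21 over the members against 0.37 over all tested genes, and the shares given were not matched for level. The 4 members whose intervals reached past 2-fold without the block were Plk1, Aurka, Ccnb1 and Espl1.

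**Figure D1:**
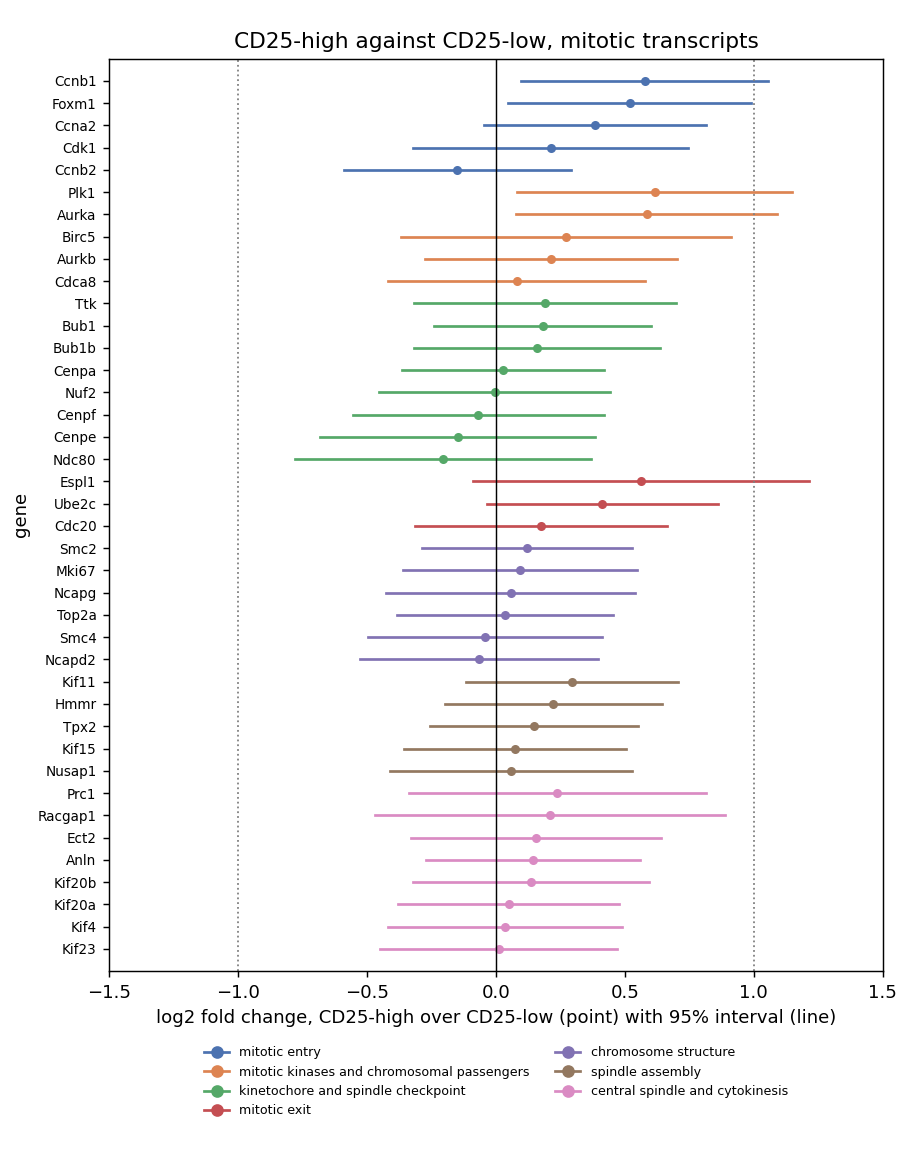
Log2 fold change of each of the 40 genes (horizontal axis, CD25-high over CD25-low, points) with its 95% interval (lines), grouped by role in colour. Values are from the fit without the replicate block. Dotted lines mark 2-fold; 4 intervals reach past it on the right and 0 on the left, and 36 of the 40 intervals include 0.

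Of the 5 genes of mitotic entry, 4 had positive log2 fold changes, with a median of 0.38, and 0 passed. Ccnb1, the activating partner of Cdk1, had 78.9, 87.9 and 75.9 CPM in CD25-high libraries 1 to 3, against 66.3, 45.0 and 51.3 CPM in CD25-low libraries 1 to 3. All 3 CD25-high libraries lie above all 3 CD25-low libraries. Its log2 fold change was 0.58 ± 0.22 (SE), with a 95% interval of 0.10 to 1.06 and an edgeR adjusted p of 0.353. Foxm1, the transcription factor of late cell cycle genes, had 117, 158 and 139 CPM in CD25-high libraries, against 76.8, 106 and 106 CPM in CD25-low libraries. Its groups do not overlap either, and library 1 is the lowest in each. The log2 fold change was 0.52 ± 0.21 (SE; interval 0.045 to 0.99, edgeR adjusted p 0.408).

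Ccna2, the cyclin of S and G2 phase, had 580, 548 and 476 CPM in CD25-high libraries 1 to 3, against 492, 373 and 365 CPM in CD25-low libraries 1 to 3. CD25-low library 1 lies above CD25-high library 3, so the groups overlap, and the log2 fold change was 0.38 ± 0.19 (SE, edgeR adjusted p 0.513). Cdk1 itself averaged 73.9 ± 17.8 CPM in CD25-high against 63.8 ± 9.56 CPM in CD25-low libraries (SD, n = 3 each), a log2 fold change of 0.21 ± 0.24 (SE). Cyclin B2 (Ccnb2) averaged 139.8 ± 23.4 CPM in CD25-high against 155 ± 14.6 CPM in CD25-low libraries (SD, n = 3 each), a log2 fold change of -0.15 ± 0.20 (SE). The point estimates of the B cyclins thus lay on opposite sides of 0, and the difference between them was not tested.

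Aurka, the kinase of the spindle poles, had 46.0, 61.1 and 71.8 CPM in CD25-high libraries 1 to 3, against 40.2, 37.0 and 42.2 CPM in CD25-low libraries 1 to 3. The groups do not overlap, and the CD25-high libraries are the more spread. Its log2 fold change was 0.58 ± 0.23 (SE), with a 95% interval of 0.078 to 1.09 and an edgeR adjusted p of 0.374. Plk1, a kinase needed from mitotic entry to cytokinesis, had 62.4, 71.1 and 70.9 CPM in CD25-high libraries, against 32.9, 43.4 and 57.2 CPM in CD25-low libraries. These groups do not overlap either, and the spread is the wider in the CD25-low group. Its log2 fold change of 0.62 ± 0.24 (SE) was the highest of the 40, with a 95% interval of 0.081 to 1.15 and an edgeR adjusted p of 0.374.

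The chromosomal passenger complex corrects faulty attachments at the centromere. Its kinase Aurkb had 82.2, 127 and 123 CPM in CD25-high libraries 1 to 3, against 87.6, 92.6 and 106 CPM in CD25-low libraries 1 to 3. CD25-high library 1 is the lowest of the 6. The same holds for its partners survivin (Birc5, 54.4 CPM there, against 77.0 to 121.6 CPM in the other libraries) and borealin (Cdca8, 87.1 CPM there, against 104 to 143.8 CPM). The log2 fold changes were 0.21 ± 0.22 for Aurkb, 0.27 ± 0.29 for Birc5 and 0.08 ± 0.22 for Cdca8 (SE), and edgeR adjusted p-values were 0.793, 0.800 and 0.930.

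**Figure D2:**
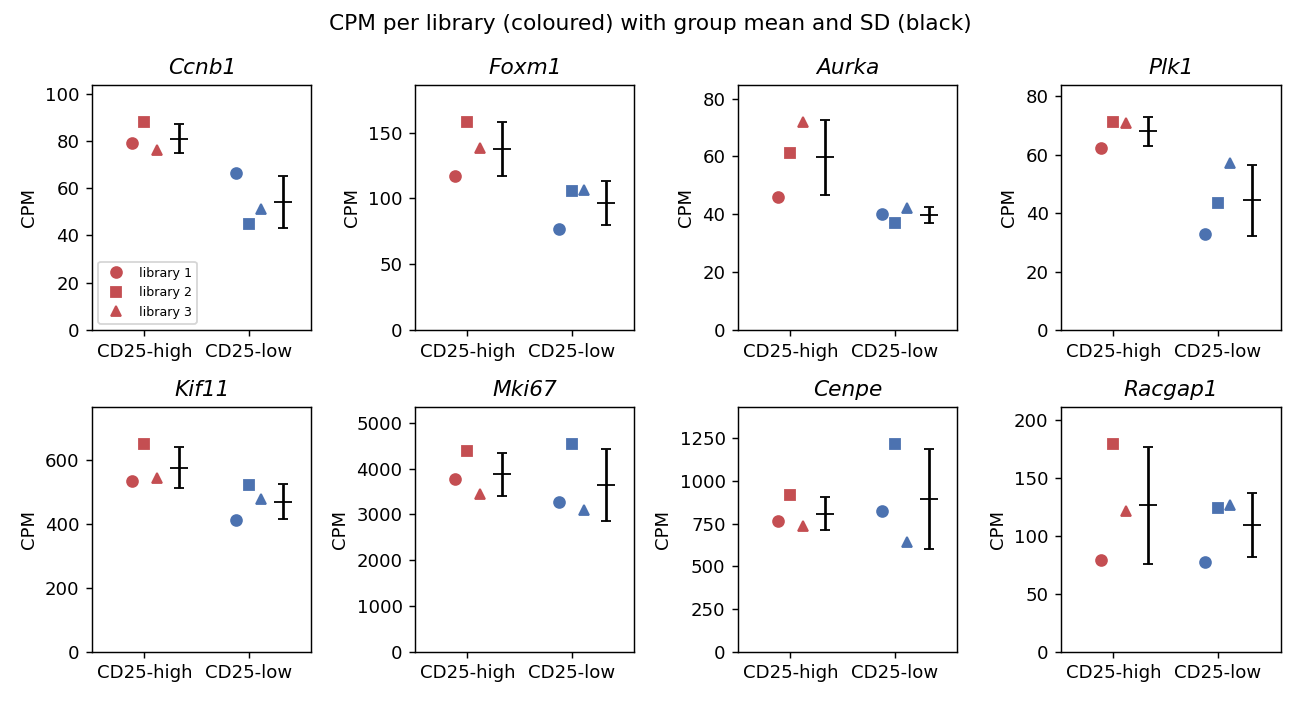
CPM per library (vertical axes, from 0) for 8 genes, CD25-high left and CD25-low right, with marker shapes for library numbers 1 to 3 and black bars for the group mean and SD (n = 3 each). Ccnb1, Foxm1, Aurka, Plk1 and Kif11 show no overlap between groups, and Mki67, Cenpe and Racgap1 do.

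In all, 5 of 40 members had every CD25-high library above every CD25-low library (Ccnb1, Foxm1, Aurka, Plk1 and Kif11), where 7.41% of all tested genes did. The reverse order held for 0 members, which 9.54% of all tested genes had. Separation in either direction was found for 16.9% of all tested genes, and the other 35 members overlapped.

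Promoter windows are shown for 4 of these 5 genes and, beside them, for Ccnb2 and Cenpe, whose log2 fold changes were negative, to show the letters shared by late cell cycle genes. Each window runs from 250 bases before to 50 after the start of transcription, from RefSeq on GRCm38.p6. Capitals mark the cell cycle homology region (CHR), searched as TTTGAA and on the opposite strand TTCAAA, to which MuvB binds, and the CCAAT box, searched as CCAAT and on the opposite strand ATTGG, to which NF-Y binds. The motifs do not overlap in the windows shown.
Ccnb1: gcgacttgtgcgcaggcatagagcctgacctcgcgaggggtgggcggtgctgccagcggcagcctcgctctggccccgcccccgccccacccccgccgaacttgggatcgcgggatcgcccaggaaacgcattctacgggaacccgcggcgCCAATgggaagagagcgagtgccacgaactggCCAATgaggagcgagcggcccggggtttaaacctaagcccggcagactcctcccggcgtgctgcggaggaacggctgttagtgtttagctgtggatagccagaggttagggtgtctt
Plk1: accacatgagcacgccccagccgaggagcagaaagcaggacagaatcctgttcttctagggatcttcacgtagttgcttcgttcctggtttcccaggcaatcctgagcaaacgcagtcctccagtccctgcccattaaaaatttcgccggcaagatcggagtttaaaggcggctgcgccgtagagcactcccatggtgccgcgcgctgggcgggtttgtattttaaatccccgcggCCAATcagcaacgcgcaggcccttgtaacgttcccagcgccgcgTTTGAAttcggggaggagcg
Aurka: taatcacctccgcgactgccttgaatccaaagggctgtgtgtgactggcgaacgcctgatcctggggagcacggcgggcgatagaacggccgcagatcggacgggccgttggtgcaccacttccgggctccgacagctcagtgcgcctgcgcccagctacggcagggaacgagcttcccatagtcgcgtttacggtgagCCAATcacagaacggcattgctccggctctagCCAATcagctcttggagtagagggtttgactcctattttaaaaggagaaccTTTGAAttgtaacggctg
Kif11: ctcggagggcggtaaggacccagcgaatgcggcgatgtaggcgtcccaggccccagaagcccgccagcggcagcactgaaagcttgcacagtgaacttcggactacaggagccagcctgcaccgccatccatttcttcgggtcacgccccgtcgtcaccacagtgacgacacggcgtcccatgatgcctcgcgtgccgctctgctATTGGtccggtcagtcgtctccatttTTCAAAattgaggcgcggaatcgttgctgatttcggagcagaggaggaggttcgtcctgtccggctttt
Ccnb2: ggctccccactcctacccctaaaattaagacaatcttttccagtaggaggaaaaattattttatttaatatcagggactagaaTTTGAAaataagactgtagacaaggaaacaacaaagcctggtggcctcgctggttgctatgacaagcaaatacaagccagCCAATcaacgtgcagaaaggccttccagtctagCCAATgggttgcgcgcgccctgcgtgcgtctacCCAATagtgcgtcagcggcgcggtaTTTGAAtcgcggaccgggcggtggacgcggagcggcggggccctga
Cenpe: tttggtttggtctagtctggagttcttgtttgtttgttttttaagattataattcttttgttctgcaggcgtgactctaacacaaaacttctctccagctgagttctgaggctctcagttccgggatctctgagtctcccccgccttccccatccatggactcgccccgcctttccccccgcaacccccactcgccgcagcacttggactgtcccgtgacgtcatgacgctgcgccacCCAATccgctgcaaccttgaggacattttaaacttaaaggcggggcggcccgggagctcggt
The windows are chr13:100786437-100786736 (minus strand) for Ccnb1, chr7:122159185-122159484 (plus) for Plk1, chr2:172370521-172370820 (minus) for Aurka, chr19:37376132-37376431 (plus) for Kif11, chr9:70421505-70421804 (minus) for Ccnb2 and chr3:135212313-135212612 (plus) for Cenpe.

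Ccnb1 has 2 CCAAT boxes, starting 99 and 67 bases before the start, and no CHR of these letters. Cenpe has a single CCAAT box 12 bases before the start and no CHR of these letters. In Plk1 and Aurka the CHR begins at base 31 and base 33 of the transcript, downstream of CCAAT boxes, and in Kif11 it begins 19 bases before the start. Ccnb2 has 3 CCAAT boxes and a CHR at base 5 of the transcript, with another 167 bases before the start. Of the 34 members with a RefSeq window, 28 (82.4%) held a CHR, against 12.3% of the 11472 windows of tested genes and 17.9% of all 32851 windows. A CCAAT box stood in 27 (79.4%), against 37.9% and 37.4%, and both motifs in 24 (70.6%), against 5.05% and 6.95%. The CHR lay within 50 bases of the start in 26 of the 34 (76.5%), against 3.10% of windows of tested genes. Ccna2, Aurkb, Kif20a, Foxm1, Tpx2 and Smc4 were not among the windows. Among the 6 windows shown, which were picked by fold change, Plk1 at a log2 fold change of 0.62 and Ccnb2 at -0.15 both hold a CHR and a CCAAT box. Whether the motifs go with the fold changes was not tested.

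Kinetochore and spindle checkpoint genes had log2 fold changes on both sides of 0. Of 8 members, 4 were above and 4 below 0, from -0.21 to 0.19 with a median of 0.01, and 0 passed the test. The checkpoint kinase Bub1 had 156, 185 and 160 CPM in CD25-high libraries 1 to 3, against 143, 168 and 131 CPM in CD25-low libraries 1 to 3. The groups overlap, and library 2 is the highest in each (log2 fold change 0.18 ± 0.19, SE). The checkpoint kinase Ttk, also called Mps1, had 53.8 to 83.7 CPM in CD25-high against 54.1 to 69.8 CPM in CD25-low libraries (log2 fold change 0.19 ± 0.23, SE). The pseudokinase Bub1b (BubR1) had a log2 fold change of 0.16 ± 0.21 (SE).

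Cenpe, the kinesin that moves chromosomes to the spindle equator, had 766, 918 and 739.5 CPM in CD25-high libraries 1 to 3, against 827, 1217 and 645 CPM in CD25-low libraries 1 to 3. The CD25-low group holds both the highest and the lowest of the 6 values, and the log2 fold change was -0.15 ± 0.24 (SE, edgeR adjusted p 0.873). Cenpf and the microtubule-binding protein Ndc80 had the same order of CD25-low libraries, with library 2 highest and library 3 lowest (log2 fold changes -0.07 ± 0.22 and -0.21 ± 0.26, SE). Nuf2, which forms a dimer with Ndc80, had a log2 fold change of -0.005 ± 0.20 (SE). Cenpa, the centromeric histone H3 variant, varied least of the 40, with 132 ± 4.59 CPM in CD25-high against 129 ± 7.75 CPM in CD25-low libraries (SD, n = 3 each).

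All 3 genes of mitotic exit had positive log2 fold changes, and 0 passed. Ube2c, the ubiquitin-conjugating enzyme of the anaphase-promoting complex, had 118, 161 and 140.3 CPM in CD25-high libraries 1 to 3, against 104, 92.7 and 119 CPM in CD25-low libraries 1 to 3. The groups meet, with CD25-high library 1 just below CD25-low library 3, and the log2 fold change was 0.41 ± 0.20 (SE, edgeR adjusted p 0.496). Espl1, whose protein separase cuts cohesin at anaphase, had 48.8, 69.1 and 56.4 CPM in CD25-high libraries, against 28.2, 32.3 and 57.4 CPM in CD25-low libraries. CD25-low library 3 lies within the CD25-high range, and the log2 fold change was 0.56 ± 0.29 (SE, edgeR adjusted p 0.532). Without the libraries numbered 3, in the fit with the replicate block, Espl1 passed with a log2 fold change of 0.95 and an edgeR adjusted p of 0.0455. It was the only member that did, and 4.08% of all genes tested in that fit passed. Cdc20, the checkpoint's target and activator of that complex, had 43.5, 57.8 and 40.5 CPM in CD25-high libraries, against 42.6, 41.3 and 41.9 CPM in CD25-low libraries (log2 fold change 0.17 ± 0.22, SE).

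Of the 6 genes of chromosome structure, which include the 3 most abundant members, log2 fold changes ran from -0.07 to 0.12, and 0 passed. Mki67 had 3784, 4390 and 3453 CPM in CD25-high libraries 1 to 3, against 3268, 4538 and 3096 CPM in CD25-low libraries 1 to 3. Library 2 is the highest in each group and library 3 the lowest, and differences between libraries of a group exceed that between the groups. The log2 fold change was 0.09 ± 0.20 (SE), with a 95% interval of -0.36 to 0.55 and an edgeR adjusted p of 0.913. Top2a, the topoisomerase that untangles sister chromatids, averaged 1611 ± 222 CPM in CD25-high against 1571 ± 205 CPM in CD25-low libraries (SD, n = 3 each; log2 fold change 0.04 ± 0.19, SE). The core condensin subunit Smc2 averaged 518 ± 54.1 CPM in CD25-high against 476 ± 57.6 CPM in CD25-low libraries (SD, n = 3 each; 0.12 ± 0.18, SE). Its partners Smc4, Ncapg and Ncapd2 had log2 fold changes of -0.04 ± 0.20, 0.06 ± 0.22 and -0.07 ± 0.21 (SE).

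Of the 5 genes of spindle assembly, all had positive log2 fold changes and 0 passed. Kif11, the kinesin that pushes the spindle poles apart, had 534, 648 and 543 CPM in CD25-high libraries 1 to 3, against 410.0, 520.4 and 475 CPM in CD25-low libraries 1 to 3. The groups do not overlap, though CD25-low library 2 comes close to CD25-high library 1, and the log2 fold change was 0.30 ± 0.18 (SE, edgeR adjusted p 0.610). Hmmr, which binds spindle microtubules, averaged 281 ± 18.2 CPM in CD25-high against 241 ± 39.3 CPM in CD25-low libraries (SD, n = 3 each; log2 fold change 0.22 ± 0.19, SE). Tpx2, the activator of Aurora A, had a log2 fold change of 0.15 ± 0.18, the kinesin Kif15 of 0.07 ± 0.19, and the spindle protein Nusap1 of 0.06 ± 0.21 (SE).

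All 8 genes of the central spindle and cytokinesis had log2 fold changes between 0.01 and 0.24, and 0 passed. Prc1, which bundles the microtubules of the central spindle, had 119, 195 and 169 CPM in CD25-high libraries 1 to 3, against 97.2, 171 and 141 CPM in CD25-low libraries 1 to 3. Library 1 is the lowest and library 2 the highest in each group, and the log2 fold change was 0.24 ± 0.26 (SE, edgeR adjusted p 0.806). Anillin (Anln), a scaffold of the contractile ring, averaged 112 ± 10.7 CPM in CD25-high against 102 ± 8.08 CPM in CD25-low libraries (SD, n = 3 each; log2 fold change 0.14 ± 0.19, SE). The kinesin Kif20b had 324, 285 and 234 CPM in CD25-high libraries, against 250.4, 302 and 215 CPM in CD25-low libraries, with overlap (0.14 ± 0.21, SE). Ect2, which cytokinesis needs, had a log2 fold change of 0.16 ± 0.22, and the kinesins Kif4, Kif20a and Kif23 of 0.04 ± 0.20, 0.05 ± 0.19 and 0.01 ± 0.21 (SE).

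Most members peaked in a library numbered 2. The highest of the 6 values was in CD25-high library 2 for 25 members and in CD25-low library 2 for 8, so that 33 of 40 peaked in a library numbered 2, as did 29.2% of all tested genes. Library 2 was the highest of its group for 33 members in CD25-high and for 24 in CD25-low cells, and in both groups for 21, where 30.8%, 32.1% and 13.5% of all tested genes did so. The lowest value was in a library numbered 1 for 22 members and for 43.1% of all tested genes. Several members, among them Ccna2, Ccnb1, Mki67, Smc4 and Kif20b, had library 1 above library 3 in both groups. The mean log2 CPM of the 40 was 7.35, 7.72 and 7.51 in CD25-high libraries 1 to 3, against 7.28, 7.49 and 7.32 in CD25-low libraries 1 to 3. Each CD25-high value is above its same-numbered CD25-low value, but the groups overlap. The highest library exceeded the lowest by a median of 1.54-fold over the members, against 2.34-fold over all tested genes with counts in every library. The members are more abundant than most tested genes (median percentile 91.6 by level per kilobase), and this comparison was not matched for level.

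Within pair 1 the median log2 difference (CD25-high minus CD25-low) over the members was 0.04, with 25 of 40 above 0. Within pair 2 it was 0.15 with 30 above 0, and within pair 3 it was 0.17 with 33 above 0. The medians over all tested genes were 0.02, -0.01 and 0.01 in the 3 pairs. Of all tested genes, 50.9%, 49.7% and 50.6% were above 0 in pairs 1, 2 and 3. The difference was above 0 in every pair for 15 members, below 0 in every pair for 0 and mixed for 25. The share of all tested genes with the same sign in every pair was not computed, so these counts stand without a comparison. Highest within each pair were Plk1 (0.92, pair 1), Espl1 (1.09, pair 2) and Aurka (0.76, pair 3). Lowest within each pair were Birc5 (-0.50, pair 1), Cenpe (-0.41, pair 2) and Ncapd2 (-0.16, pair 3).

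**Figure D3:**
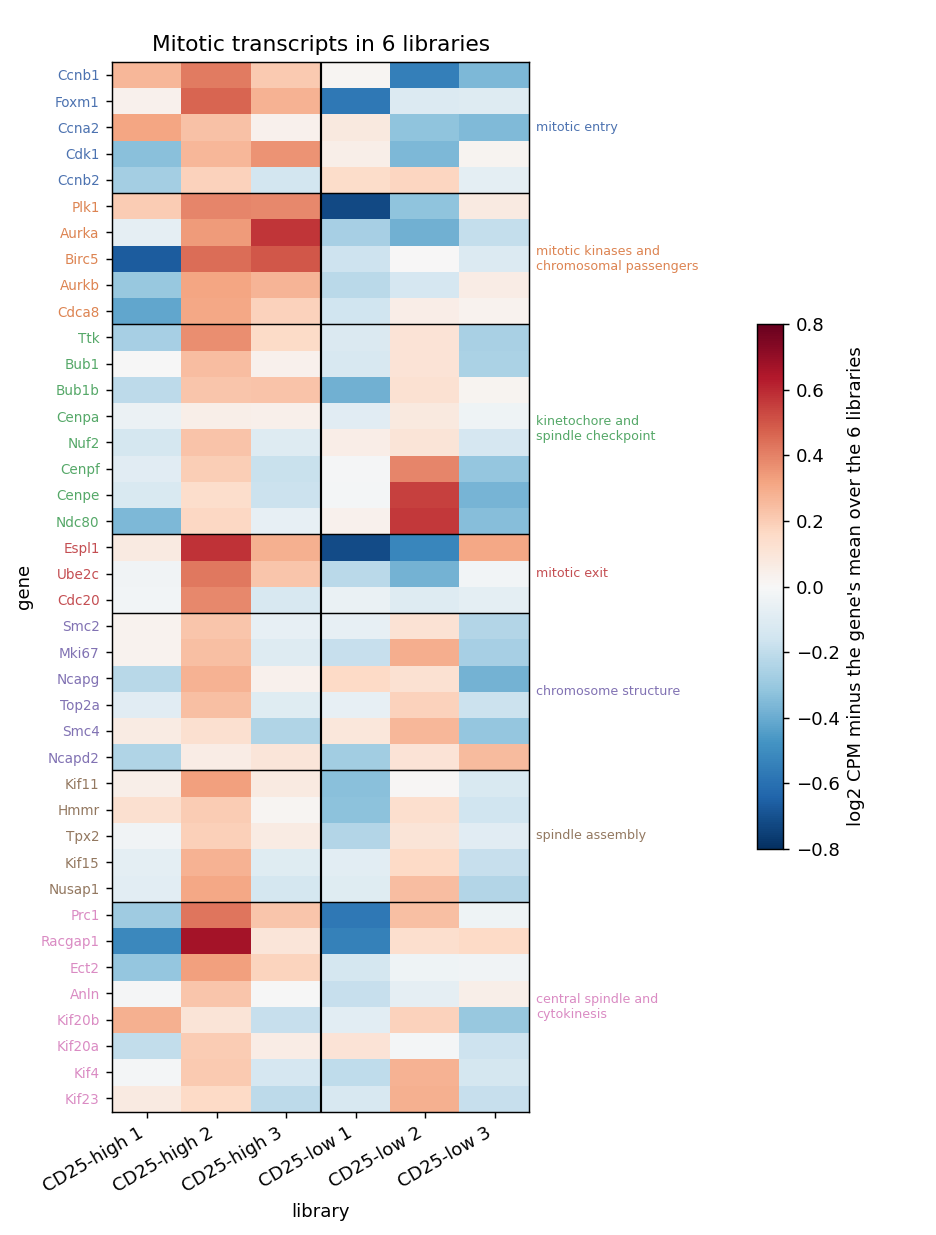
Log2 CPM of each gene minus its mean over the 6 libraries (colour), with libraries in columns (CD25-high left) and the 40 genes in rows, grouped by role. Of the 40 rows, 25 are darkest red in CD25-high library 2 and 8 in CD25-low library 2, among the latter Cenpe, Cenpf, Ndc80 and Mki67.

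With the group as a term, edgeR's test of the replicate number called 0 of 40 members, where it called 3.63% of all tested genes. Racgap1, a partner of Kif23 at the central spindle, came closest. It had 78.9, 179 and 121 CPM in CD25-high libraries 1 to 3, against 77.7, 124 and 126 CPM in CD25-low libraries 1 to 3. Library 1 is the lowest in each group, with log2 differences of 0.94 for number 2 and 0.66 for number 3 over number 1 (edgeR adjusted p 0.0557). Prc1 followed, with log2 differences of 0.76 and 0.52 over number 1 (edgeR adjusted p 0.0756). Between CD25-high and CD25-low cells, the log2 fold change of Racgap1 was 0.21 ± 0.31 (SE). With single libraries left out, in fits added after the data were seen, Racgap1 passed the test of the replicate number without CD25-high library 3, CD25-low library 2 or CD25-low library 3, and Birc5 without CD25-low library 1. In these 4 fits 6.81%, 4.49%, 6.21% and 3.05% of all tested genes passed, in the order of the libraries named, so 1 member of 40 is not above the share of all genes.

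Other genes of mitosis and its control, on 6 lists without the 40 members, had log2 fold changes with a similar median. Of 153 tested, 112 had log2 fold changes above 0 and 41 below, with a median of 0.13. Without the replicate block 0 of them passed in either direction, where 0.655% of all tested genes passed. With the block 0 passed as well, where 4.63% of all tested genes passed. Among 40 kinetochore and centromere genes, those with the smallest p were Cenpq (17.3 ± 2.25 CPM in CD25-high against 27.1 ± 4.29 CPM in CD25-low libraries, log2 fold change -0.65 ± 0.26) and the cohesin protector Sgo2a (168 ± 31.6 against 120 ± 18.3 CPM, 0.49 ± 0.21). Among 38 further spindle and cytokinesis genes they were the kinesin Kif18b (0.46 ± 0.19) and Troap (0.59 ± 0.29). Securin (Pttg1), the inhibitor of separase, had 16.4, 35.8 and 31.8 CPM in CD25-high libraries 1 to 3, against 52.8, 43.1 and 38.9 CPM in CD25-low libraries 1 to 3. Its groups do not overlap, and its log2 fold change of -0.68 ± 0.30 (SE, edgeR adjusted p 0.443) had the opposite sign to that of Espl1. The difference between Pttg1 and Espl1 was not tested. Next to Pttg1 among 17 condensin and cohesin genes was Ncapg2 (0.31 ± 0.18).

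Among 17 genes of the anaphase-promoting complex, Ube2s had the largest log2 fold change of those named (1.07 ± 0.46), at only 4.69 ± 0.507 CPM in CD25-high against 2.23 ± 0.482 CPM in CD25-low libraries (SD, n = 3 each), and Cdc27 had 0.46 ± 0.21. Among 17 regulators of Cdk1 and the G2 checkpoint, Wee1, the kinase that restrains Cdk1, had 21.3, 20.9 and 27.9 CPM in CD25-high libraries 1 to 3, against 11.7, 12.7 and 13.8 CPM in CD25-low libraries 1 to 3. All CD25-high libraries lie above all CD25-low libraries, and the log2 fold change was 0.88 ± 0.27 (SE, edgeR adjusted p 0.232, and 0.0812 with the block). Cdc25a, a phosphatase that opposes Wee1, had 0.62 ± 0.28. Among 24 MuvB and E2F regulators, Mybl2, which encodes the B-Myb that joins MuvB, averaged 35.8 ± 8.27 CPM in CD25-high against 19.9 ± 2.37 CPM in CD25-low libraries (SD, n = 3 each; log2 fold change 0.85 ± 0.26, SE, edgeR adjusted p 0.238). The repressor E2f8 had 0.59 ± 0.21 (SE, edgeR adjusted p 0.318).

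All 26 S phase genes had log2 fold changes above 0, with a median of 0.30 beside 0.14 for the mitotic members, and the difference between these lists was not tested. Where 0.655% of all tested genes passed, 0 of these 26 did so without the block. With it the helicase subunit Mcm2 passed (180 ± 27.7 CPM in CD25-high against 118 ± 14.3 CPM in CD25-low libraries, SD, n = 3 each; edgeR adjusted p 0.0486), 1 of 26 S phase genes, where the block fit called 4.63% of all tested genes. The origin recognition subunit Orc1 had a log2 fold change of 0.64 ± 0.23 (SE, edgeR adjusted p 0.332).

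**Figure D4:**
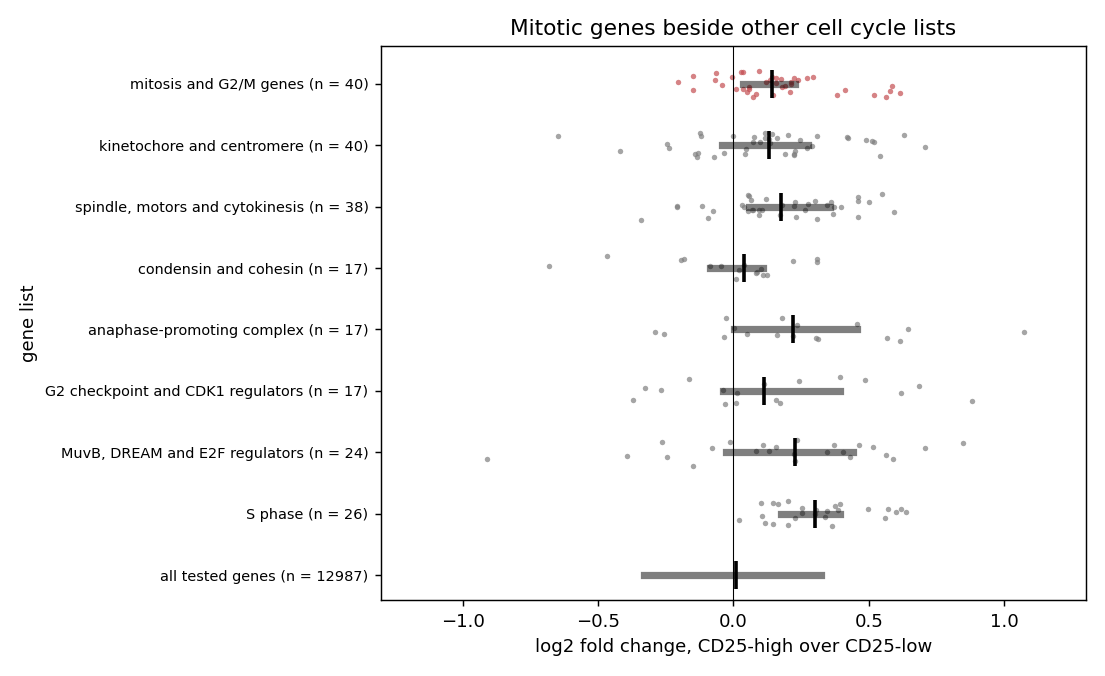
Log2 fold changes (CD25-high over CD25-low) of the 40 mitosis and G2/M genes (red) and of other cell cycle lists (grey points), with black bars from the 25th to the 75th percentile and a tick at the median. The mitotic genes have a median of 0.14, S phase genes of 0.30 and all 12987 tested genes of 0.01.

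Some counts are less certain than their errors. Without a stated strand setting, exonic bases shared with a gene on the opposite strand can add reads: 29.3% of the exonic bases of Kif20a lie opposite Cdc23, 22.8% of Ube2c opposite Tnnc2, 15.1% of Kif4 opposite Pdzd11, 13.4% of Ncapg opposite Lcorl, 12.5% of Ccna2 opposite Exosc9 and 11.1% of Prc1 opposite Rccd1, and, outside the 40, 35.0% of Sgo2a opposite Kctd18. Ccnb1 and Ccnb2 have processed pseudogenes, Ccnb1-ps with 7 to 18 counts and Ccnb2-ps with 8 to 71 counts per library, and Kif4 has the pseudogene Kif4-ps, so their reads may be split. In GENCODE M21 (GRCm38) the protein-coding genes named most are placed at chr13:100778650-100786570 (Ccnb1, minus), chr7:122159439-122169873 (Plk1, plus), chr2:172356190-172370535 (Aurka, minus), chr6:128362967-128376146 (Foxm1, plus), chr19:37376403-37421859 (Kif11, plus) and chr7:135689784-135716361 (Mki67, minus). The 40 genes lie on 16 chromosomes.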

How the data were processed

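Total RNA of 3 CD25-high and 3 CD25-low samples was made into libraries by NuGEN's Ovation kit for RNA-Seq (per the labels' protocols). The authors deposited raw counts, whole numbers of reads per Ensembl gene. The submitters' processing notes list Novoalign and DESeq2 with no version, and the builds mm10 and hg19. How reads were counted, on which annotation and with which strand setting is not given in the sources used here. Among 15445 rows the smallest total was 10, and 15169 were named through GENCODE M21 (GRCm38).

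The counts were fitted with edgeR 4.0.16 in R 4.3.3 (TMM factors, filterByExpr with a minimum count of 10 and total of 15, quasi-likelihood F test, group as the only term), which left 12987 genes. P-values were adjusted by Benjamini-Hochberg over these genes, and genes below 0.05 were called. CPM uses TMM-adjusted library sizes, and log2 CPM a prior count of 2. The SE divides the size of the log2 fold change by the root of F, and 95% intervals use the fit's degrees of freedom. Values of single genes for CD25-high over CD25-low are from this fit, without the block, unless stated. Each member had at least 516 counts in each library. Alternatives were DESeq2 1.42.0, limma 3.58.1 voom, other factors and filters, removal of mitochondrial genes and Gm42418, each library left out, and the replicate number as a block. Libraries of a group differed by more than counting noise (chi-square over its degrees of freedom from 26.0 to 91.6). Over the 2000 most variable genes, deviations of same-numbered libraries correlated at 0.34, 0.19 and 0.16, each above the limit of 0.1, so the numbers were taken as pairs. This comes from the data, no label states it, and CD25-high 2 with CD25-low 3 also passed the limit, at 0.13.

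The members and lists were chosen with earlier results of these data known. Named in full per role are the 2 members with the smallest p and the most abundant per kilobase, and in each other list the 2 genes with the smallest p or those called. Genes named beyond that were chosen after their values were seen.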

Additional observations from a re-analysis of the deposited data

How the results depend on the processing

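Counts of members called were 0 in the main fit and under DESeq2, limma voom, other factors and filters and each library left out. The replicate block also called 0 members, and in that fit without pair 3 there was 1 (Espl1). Calls over all genes numbered 85, against 376 with DESeq2, 22 to 130 with single libraries left out, 601 with the replicate block, and 461, 486 and 536 with the block and without pair 1, 2 or 3. The median log2 fold change of the members was 0.14, and 0.03 to 0.21 with single libraries left out, lowest without CD25-high library 2. The block and pairs 1, 2 and 3 left out in turn gave 0.14, 0.18, 0.05 and 0.10. In the test of the replicate number, with single libraries left out (chosen after seeing the data), 0 to 1 members and 328 to 921 genes were called. Over these alternatives 50 log2 fold changes of single members turned sign, in 20 members. Nuf2 had 0.00 with DESeq2 and 0.01 with RLE or upper-quartile factors. With the block and without pair 1, Nuf2 had 0.08, Kif4 -0.03 and Kif23 -0.08. Without pair 2, Cdk1 had -0.03, Cdca8 -0.06, Cenpe 0.04, Cenpf 0.02, Cdc20 -0.02, Smc4 0.01, Kif20a -0.05 and Racgap1 -0.03. Without pair 3, Birc5 had -0.02, Ncapg -0.11 and Kif20a -0.04. With single libraries left out, log2 fold changes ran from -0.12 to 0.06 for Nuf2, -0.20 to 0.05 for Ncapd2, -0.08 to 0.17 for Kif23, -0.06 to 0.27 for Cdca8, -0.08 to 0.14 for Top2a, -0.10 to 0.17 for Ncapg, -0.05 to 0.18 for Kif15, -0.09 to 0.21 for Nusap1, -0.06 to 0.20 for Kif4, -0.04 to 0.15 for Kif20a, -0.12 to 0.46 for Racgap1, -0.22 to 0.13 for Cenpf, -0.19 to 0.09 for Smc4, -0.01 to 0.07 for Cenpa, -0.40 to 0.07 for Ndc80, -0.34 to 0.13 for Cenpe and -0.01 to 0.28 for Mki67. The cause was not tested. Each SE rests on 3 libraries a group. The parts of depth and of spread between libraries in it were not separated.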

Other observations

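Over the 40 mitotic genes, log2 fold change and exon length had a Pearson r of -0.33 and a Spearman rho of -0.36. Log2 fold change and level per kilobase had a Pearson r of -0.29 and a Spearman rho of -0.20. These describe genes measured in the same 6 libraries, which are not independent replicates.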
